A study of Mus musculus with 4 samples.

Results

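Transcripts of voltage-gated sodium channel subunits were followed in Nf2-deficient mouse Schwann cells, with and without NXD30001, an inhibitor of the chaperone HSP90. The set holds 8 of the 35604 gene rows in each of 2 deposited tables: the pore-forming alpha subunits Scn1a, Scn3a, Scn4a, Scn7a, Scn8a and Scn9a and the accessory beta subunits Scn2b and Scn3b. Rows were taken by gene symbol where the authors' status was OK, which held for all 8 in culture and for 7 in tumours. Scn3b had the status LOWDATA in tumours. The set was selected on measured values, because the FPKM of Scn7a were higher with treatment in both tables, so its differences between treated and untreated libraries are given as a description and support nothing further.

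Each of the 4 groups has 1 library. In culture, cells were exposed to 1 µM NXD30001 for 24 h, against DMSO for 24 h. Mice carrying tumours of the same cells were given 100 mg/kg NXD30001 over 4 weeks, with 3 doses per week, against vehicle on the same schedule. All 4 libraries came from ESC-FC1801, a single line of embryonic mouse Schwann cells on the FVB/N background with floxed Nf2 alleles that were deleted in vitro with a Cre adenovirus, so by their label treated and untreated cells alike lack merlin, the tumour suppressor that Nf2 encodes, and no group tests that loss. A tumour also holds cells of the host mouse. Without replicate libraries there is no replicate error and no test was run: a gene called higher or lower differs between the libraries at hand.

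A voltage-gated sodium channel has 1 large alpha subunit, which forms the pore and senses voltage, and smaller beta subunits that set its gating and its place in the membrane. In peripheral nerve these channels gather at the nodes of Ranvier, where they carry the action potential along axons that Schwann cells wrap. Schwann cells hold transcripts of such channels too. Scn7a encodes Nax, an atypical alpha subunit whose voltage sensor differs from that of its relatives; in mouse it is known from non-myelinating Schwann cells and from brain glia that respond to the sodium level outside the cell.

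The promoters of Scn7a and Scn8a are shown because these were the alpha subunits in the set with the highest levels in treated tumours, and because Scn8a differed in opposite directions in culture and in tumours. They come from RefSeq on build GRCm38.p6, which is the C57BL/6J reference and not the FVB/N genome of these cells, and they run 5′ to 3′ from 250 bases before to 50 bases after each gene start. Capitals mark a match to a motif, and everything else is in lower case. Of the 8 subunits, 6 had a promoter in that table.
Scn7a, minus strand, chr2:66784861-66785160: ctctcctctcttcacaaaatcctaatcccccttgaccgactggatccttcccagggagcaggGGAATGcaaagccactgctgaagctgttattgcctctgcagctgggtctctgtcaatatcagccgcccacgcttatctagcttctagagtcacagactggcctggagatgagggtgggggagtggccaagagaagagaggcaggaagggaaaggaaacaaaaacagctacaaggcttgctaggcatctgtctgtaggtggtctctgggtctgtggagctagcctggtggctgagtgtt
Scn8a, plus strand, chr15:100870395-100870694: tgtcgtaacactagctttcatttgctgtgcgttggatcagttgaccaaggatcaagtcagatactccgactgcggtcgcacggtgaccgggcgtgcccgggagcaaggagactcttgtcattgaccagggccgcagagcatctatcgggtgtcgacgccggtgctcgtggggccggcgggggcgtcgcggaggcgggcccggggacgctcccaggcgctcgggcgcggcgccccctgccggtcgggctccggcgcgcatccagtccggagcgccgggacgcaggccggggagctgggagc
Scn8a, plus strand, chr15:100936021-100936320: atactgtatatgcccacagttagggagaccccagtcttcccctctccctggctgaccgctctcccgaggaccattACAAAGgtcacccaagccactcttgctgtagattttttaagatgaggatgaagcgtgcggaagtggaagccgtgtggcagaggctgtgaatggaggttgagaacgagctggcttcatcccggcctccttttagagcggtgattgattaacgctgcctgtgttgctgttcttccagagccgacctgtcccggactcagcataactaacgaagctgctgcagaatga

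The Scn7a promoter held the TEAD motif GGAATG at base 63 of 300, counted from the 5′ end. The second Scn8a promoter held the SOX motif ACAAAG at base 76, and the first held none of the 5 motifs searched. Both strands were read, and matches did not overlap, since each of these 3 windows held 1 match or none. Among 32851 promoters of the same length GGAATG was present in 14.7% and ACAAAG in 18.7%. Among 12 promoters of 10 sodium channel subunit genes, each was present in 4. The other motifs were the AP-1 motif TGANTCA and heat shock element repeats in both orders, GAANNTTC and TTCNNGAA. These were present in 7.81%, 7.86% and 8.52% of all promoters and in 0 of the 12. A match is a run of letters and not a binding site, and the data hold no measurement of binding.

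Scn7a was the subunit with the highest level in all 4 libraries and the one higher with NXD30001 in both settings. The gene (ENSMUSG00000034810, chr2:66511482-66622971 in mm9, the build of all gene loci given here) shares its locus with no other row. In culture it was listed at 13.2 FPKM in the NXD30001 library and 1.72 FPKM in the DMSO library, where FPKM is the level scaled to transcript length and to mapped fragments. In tumours it was listed at 76.7 FPKM with NXD30001 and 14.1 FPKM with vehicle. The treated library was thus the higher of each pair, and the tables were scaled separately, so levels are set against each other only within a table.

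Differences subtract the untreated from the treated log2(FPKM + 1), a scale on which changes of weakly expressed genes look smaller than they are. For Scn7a they were 2.38 in culture and 2.36 in tumours. In culture this was the 296th highest of 12676 genes compared, those with at least 1 FPKM in either library, and in tumours the 215th highest of 15550. The ratio without a pseudocount was 7.67 in culture, and the error implied by the authors' test statistic gives it a 95% range of 2.47 to 23.8. In tumours the ratio was 5.42, with a range of 2.88 to 10.2. The implied error, 0.83 in culture and 0.46 in tumours on the log2 scale, rests on the authors' model of 2 libraries and covers no spread between cultures or mice. The authors' deposited table calls Scn7a higher in both settings, with a q-value of 0.0141 in culture and 1.77e-05 in tumours.

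**Figure D1:**
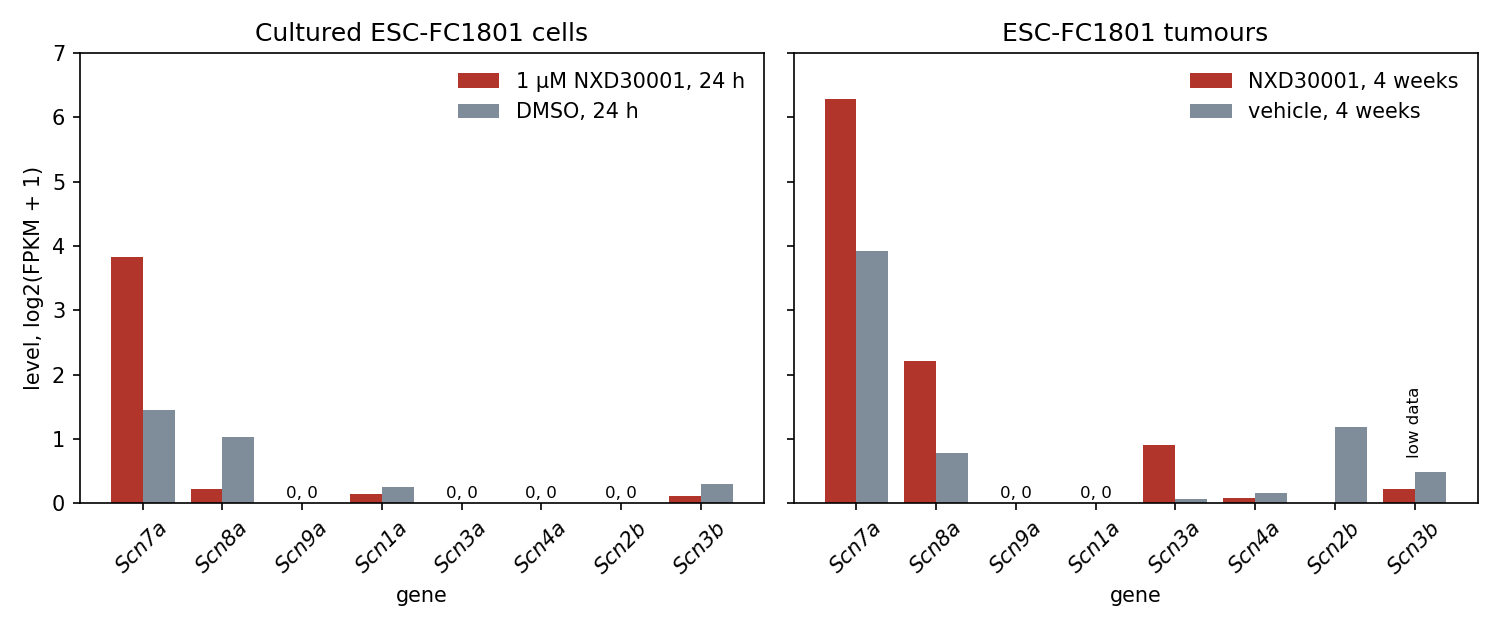
Level of each of the 8 subunits in log2(FPKM + 1), from 0, in the NXD30001 library (red, left) and the untreated library (grey, right) of cultured cells and of tumours, 1 library per bar; "0, 0" marks genes listed at 0 in both. Scn7a has the highest bar in every library, and its treated bars of 13.2 FPKM in culture and 76.7 FPKM in tumours stand above the untreated bars of 1.72 and 14.1 FPKM.

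Scn8a, the main channel of mature nodes of Ranvier, was lower with NXD30001 in culture and higher with NXD30001 in tumours. The gene (ENSMUSG00000023033, chr15:100701114-100876360) shares its locus with no other row. In culture it was listed at 0.168 FPKM with NXD30001 and 1.05 FPKM with DMSO, just above the 1 FPKM minimum. In tumours it was listed at 3.64 FPKM with NXD30001 and 0.708 FPKM with vehicle. The differences were -0.81 in culture and 1.44 in tumours. As ratios they were 0.160 in culture, with a 95% range of 0.0608 to 0.423, and 5.14 in tumours, with a range of 2.99 to 8.84. Neither range includes 1, and neither covers the spread between cultures or mice. The authors' deposited table calls Scn8a lower in culture, with a q-value of 0.00831, and higher in tumours, with a q-value of 4.68e-07. The difference between culture and tumours was not tested, since neither has replicates.

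**Figure D2:**
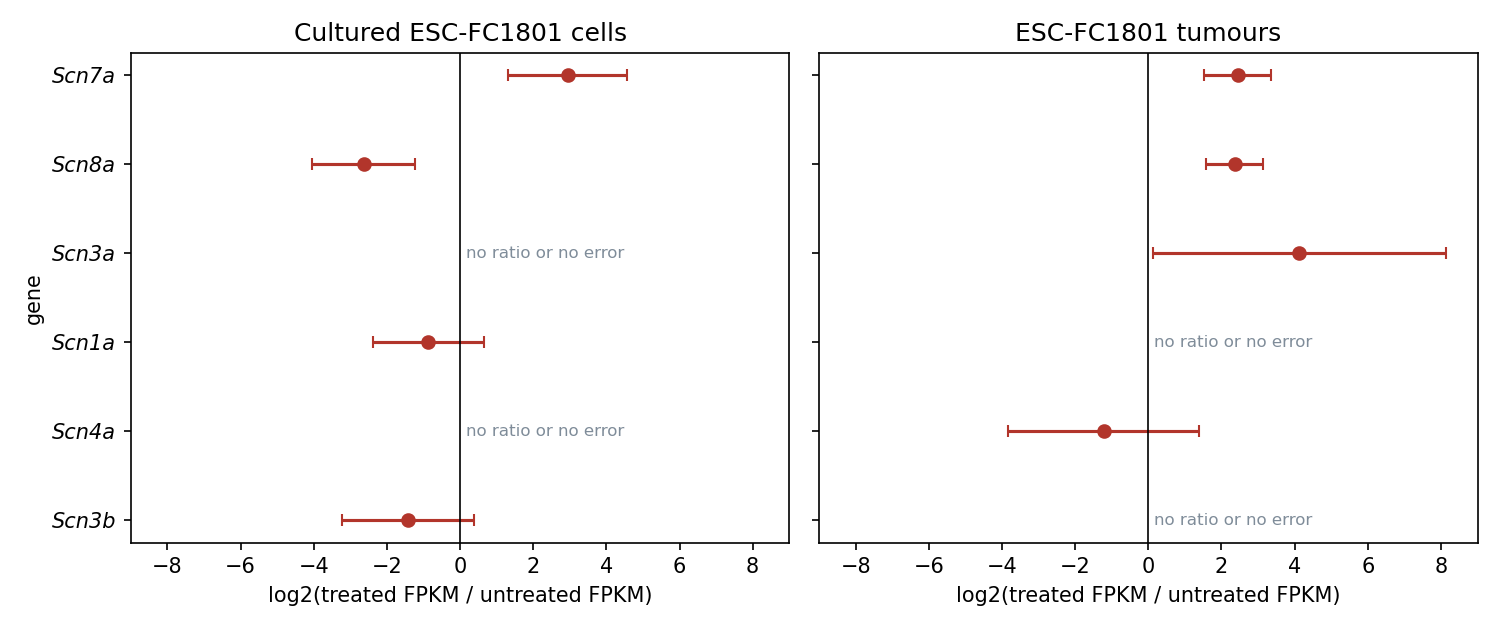
Treated over untreated ratio of sodium channel subunits, as log2, in culture and in tumours; points are the deposited levels of 1 library over 1 library and bars the 95% range implied by the authors' statistic, with a note where a gene has no ratio or no error. Scn7a lies right of 0 in both panels (ratios of 7.67 and 5.42), and Scn8a lies left of 0 in culture (0.160) and right of 0 in tumours (5.14).

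The other alpha subunits of the set were near or at 0. Scn3a, a channel of the embryonic brain (ENSMUSG00000057182, chr2:65296320-65405684), was listed at 0 in both culture libraries. In tumours it was listed at 0.879 FPKM with NXD30001 and 0.0503 FPKM with vehicle. Its ratio of 17.5 has a 95% range of 1.09 to 280.2, both levels are under 1 FPKM, and the authors' deposited table does not call it (q-value 0.477). Scn1a, a channel of inhibitory neurons (ENSMUSG00000064329, chr2:66108838-66278897), was listed at 0.107 FPKM with NXD30001 and 0.195 FPKM with DMSO in culture. The range of that ratio, 0.191 to 1.58, includes 1, and in tumours Scn1a was listed at 0 in both libraries.

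Scn4a, the channel of skeletal muscle (ENSMUSG00000001027, chr11:106179906-106238428), was at 0 in both culture libraries. In tumours it was listed at 0.0519 FPKM with NXD30001 and 0.121 FPKM with vehicle, and the range of the ratio, 0.0706 to 2.60, includes 1. Scn9a, a channel of pain-sensing neurons (ENSMUSG00000075316, chr2:66278937-66473009), was listed at 0 in all 4 libraries. RP23-397A11.2, a row at the same locus, was listed in tumours at 0 with NXD30001 and 1.19 FPKM with vehicle. Scn1a, Scn3a, Scn4a and Scn9a each share a locus with other rows, 4 of them in the case of Scn9a, and the sources used here do not say whether library preparation kept strand. Reads of overlapping genes therefore cannot be told apart, and a listed 0 may be a failed estimate.

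Both beta subunits were low. Scn2b, which links to alpha subunits through a disulfide bond (ENSMUSG00000070304, chr9:44887266-44943689), was listed at 0 in both culture libraries. In tumours it was listed at 0 with NXD30001 and at 1.26 FPKM with vehicle, where the implied error of the level is 0.395 FPKM. The difference was -1.18, no ratio is given against a listed 0, and the authors' deposited table calls Scn2b lower with a q-value of 0.0286. Its locus also holds Amica1, listed at 9.47 FPKM with NXD30001 and 6.44 FPKM with vehicle, and AC122305.1, listed at 0 in both. Scn3b, a beta subunit that associates without such a bond (ENSMUSG00000049281, chr9:40076802-40099203), was listed at 0.0848 FPKM with NXD30001 and 0.227 FPKM with DMSO in culture. The range of that ratio, 0.107 to 1.31, includes 1. In tumours Scn3b was listed at 0.165 FPKM with NXD30001 and 0.394 FPKM with vehicle under the status LOWDATA, with no error.

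Few subunits reached 1 FPKM, which was needed to be compared: Scn7a and Scn8a in culture, and Scn7a, Scn8a and Scn2b in tumours. In culture 1 of these 2 was at least 2-fold higher on the log2(FPKM + 1) scale, beside 12.6% of all compared genes, and 0 were 2-fold lower, beside 24.8%. In tumours 2 of 3 were 2-fold higher, beside 7.32% of all compared genes, and 1 was 2-fold lower, beside 6.93%. By the calls of the authors' deposited table, 1 was higher and 1 lower in culture, beside 2.75% and 7.14% of compared genes. In tumours 2 were higher and 1 lower in the authors' deposited table, beside 3.14% and 2.45%. Nothing is read from these counts, because the same comparisons were used to choose the set. The median difference was 0.79 over the 2 genes in culture and 1.44 over the 3 in tumours, while the medians of all compared genes were -0.25 and -0.03. Over all members with status OK the median was 0 in both tables.

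**Figure D3:**
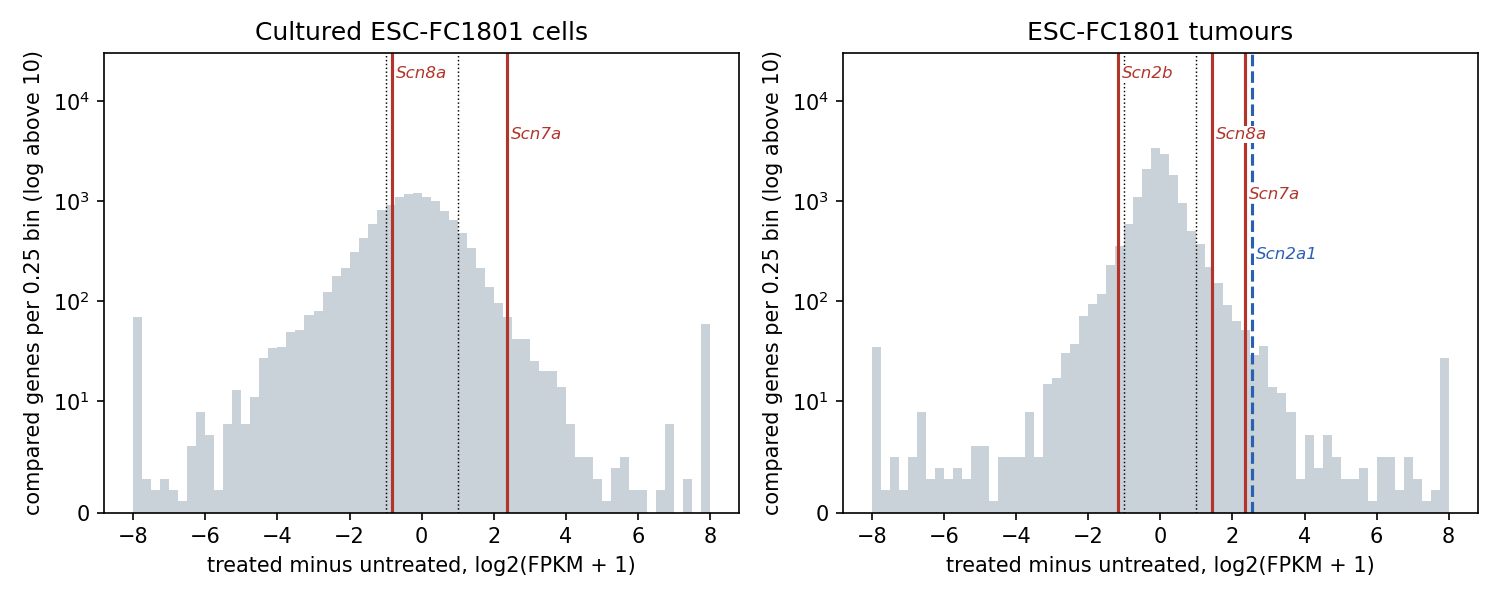
Number of compared genes per 0.25-wide bin of treated minus untreated log2(FPKM + 1) in culture (12676 genes) and tumours (15550 genes), on a count axis that is logarithmic above 10; values beyond 8 in either direction are gathered in the end bins, and dotted lines mark 2-fold. Vertical lines place the compared subunits of the set (red) and Scn2a1 (blue, dashed): Scn7a stands at 2.38 in culture and 2.36 in tumours, to the right of most genes.

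The makeup of the 6 alpha subunits in the set differed more between the culture libraries than between the tumour libraries. Of their summed FPKM, Scn7a made up 98.0% in NXD30001 culture and 58.0% in DMSO culture. Scn8a made up 1.25% in NXD30001 culture and 35.4% in DMSO culture. In tumours Scn7a made up 94.4% with NXD30001 and 94.1% with vehicle, and Scn8a 4.48% with NXD30001 and 4.71% with vehicle. In tumours the summed level was 81.2 FPKM with NXD30001 and 15.0 FPKM with vehicle. In culture the sum was 13.4 FPKM with NXD30001 and 2.96 FPKM with DMSO. The shares depend on which genes are summed: over all 10 alpha subunit genes Scn7a made up 68.7% in NXD30001 tumours and 90.9% in vehicle tumours, and 90.8% in NXD30001 culture and 51.9% in DMSO culture.

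The remaining sodium channel subunit genes were a list of 6. Scn2a1, a channel of brain axons, was listed in tumours at 5.09 FPKM with NXD30001 and 0.0484 FPKM with vehicle, and at 0 in both culture libraries. Its implied error of 17.9 on the log2 scale leaves the size of that ratio undetermined, and the authors' deposited table does not call it. Scn10a, Scn11a and Scn4b were listed at 0 in both untreated libraries and at no more than 0.137 FPKM in the treated ones. In culture 0 of 1 compared gene of this group was 2-fold higher or lower, beside 12.6% and 24.8% of all compared genes. In tumours 2 of 3 were 2-fold higher and 0 lower, beside 7.32% and 6.93% of all compared genes. Scn2a1, with its undetermined ratio, is among these 2.

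Among genes that anchor or regulate sodium channels, Nrcam and Fgf14 were 2-fold higher in treated tumours. Of 20 listed, 13 could be compared in culture, where 1 was 2-fold higher, beside 12.6% of all compared genes, and 2 were lower, beside 24.8%, with a median of -0.41. In tumours 15 could be compared, of which 2 were 2-fold higher, beside 7.32% of all compared genes, and 0 lower, beside 6.93%, with a median of 0.28. Within 2-fold were 10 of 13 in culture, beside 62.5% of all compared genes, and 13 of 15 in tumours, beside 85.7%, so the tumour share lies near that of all genes. Nrcam, an adhesion molecule that gathers channels at nodes, was listed in tumours at 30.2 FPKM with NXD30001 and 8.94 FPKM with vehicle, a difference of 1.65. The authors' deposited table calls Nrcam and Nedd4 higher in tumours, although Nedd4 was listed at 368 FPKM with NXD30001 and 339 FPKM with vehicle, a difference of 0.12. Fgf14, an intracellular channel-binding protein, was listed in tumours at 2.71 FPKM with NXD30001 and 0.595 FPKM with vehicle, a difference of 1.22 that the authors' deposited table does not call, and it shares its locus with another row. The remaining tumour genes with the largest differences, Fgf11 (0.74) and the splicing factor Scnm1 (0.68), were within 2-fold.

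The culture genes given from this list are the 3 with the largest differences below 0. Calm2, a calmodulin gene, was listed in culture at 990.4 FPKM with NXD30001 and 2375 FPKM with DMSO, a difference of -1.26. Calm3, another calmodulin gene, had a difference of -1.02, and Nedd4, a ubiquitin ligase that removes channels from the membrane, -0.87. The authors' deposited table calls none of these 3.

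The sodium-potassium pump, which returns the sodium that such channels let in, had members on both sides. Of 11 genes listed, 5 were compared in culture, with 1 at least 2-fold higher, 2 lower and a median of -0.33. In tumours 8 were compared, with 3 higher, 1 lower and a median of 0.24. Of all compared genes in culture, 12.6% were 2-fold higher and 24.8% lower, with a median of -0.25. Of all compared genes in tumours, 7.32% were higher and 6.93% lower, with a median of -0.03. Fxyd1, a small regulator of the pump also called phospholemman, was listed in culture at 1.07 FPKM with NXD30001 and 5.57 FPKM with DMSO, a difference of -1.67. In tumours Fxyd1 was listed at 81.7 FPKM with NXD30001 and 22.9 FPKM with vehicle, a difference of 1.79. The authors' deposited table calls Fxyd1 in tumours only, and whether culture and tumours differ was not tested.

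Fxyd5, another FXYD regulator, was listed in culture at 3.13 FPKM with NXD30001 and 33.6 FPKM with DMSO, and the authors' deposited table calls it lower. Atp1b1, a beta subunit of the pump, was listed in tumours at 2.06 FPKM with NXD30001 and 12.1 FPKM with vehicle, and the authors' deposited table calls it lower. Atp1b2, another pump beta subunit, was listed in culture at 20.3 FPKM with NXD30001 and 9.15 FPKM with DMSO, a difference of 1.07. In tumours Fxyd7 was listed at 2.74 FPKM with NXD30001 and 0 with vehicle, and Fxyd3 differed by 1.09. The authors' deposited table calls none of these last 3 differences.

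Potassium channels known from glia were the last of the 4 channel lists. Of 12 genes, 7 were compared in culture, with 1 at least 2-fold higher, 2 lower and a median of -0.11. In tumours 6 were compared, with 2 higher, 1 lower and a median of 0.49. The shares of all compared genes were 12.6% higher and 24.8% lower in culture, and 7.32% and 6.93% in tumours. Kcna2, a Shaker-type channel, was listed in tumours at 5.61 FPKM with NXD30001 and 0.538 FPKM with vehicle. Kcna6, of the same family, was listed in tumours at 31.1 FPKM with NXD30001 and 9.83 FPKM with vehicle. The authors' deposited table calls both higher, with differences here of 2.10 and 1.57.

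In culture Kcna1, another Shaker-type gene, was listed at 2.18 FPKM with NXD30001 and 0.156 FPKM with DMSO, and the authors' deposited table calls it higher. Kcnk2, a background potassium channel, was listed in culture at 0.375 FPKM with NXD30001 and 8.40 FPKM with DMSO, and the authors' deposited table calls it lower. Kcnn4, a calcium-activated channel, differed by -1.39 in culture and 0.73 in tumours, Kcnj13 by -0.88 in culture and Kcna5 by -1.04 in tumours. The authors' deposited table calls none of these.

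**Figure D4:**
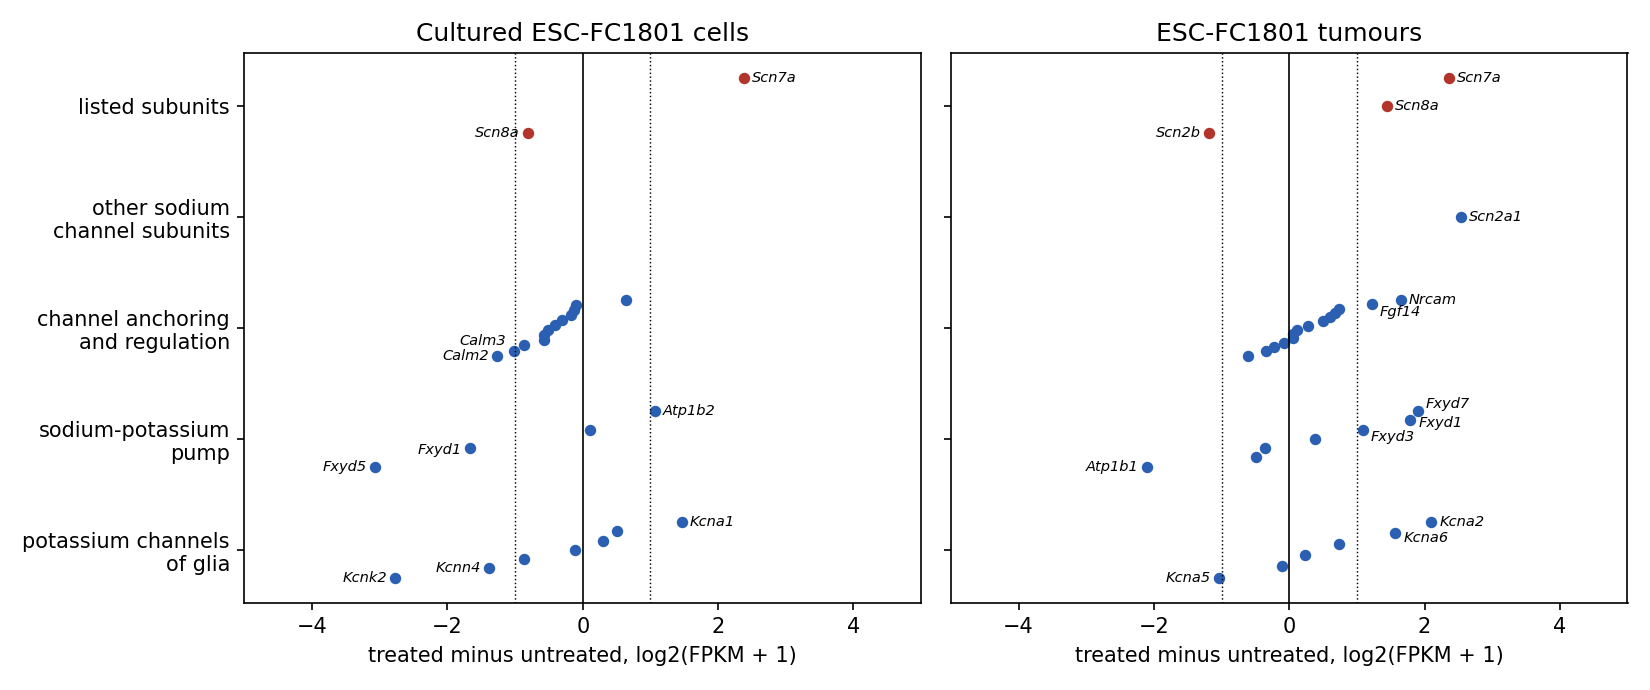
Treated minus untreated log2(FPKM + 1) of the compared genes reported here from the listed subunits (red) and from 4 further channel lists (blue), in culture and in tumours; each point is 1 gene, its height within a row only separates points, and dotted lines mark 2-fold. Scn7a is far right in both panels (2.38 and 2.36).

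Markers of the cells a sample can hold moved beside these values. The Schwann cell list of 12 genes had 10 compared in tumours. All 10 were at least 2-fold higher with NXD30001 and called higher in the authors' deposited table, beside 7.32% and 3.14% of all compared genes. The list summed to 692 FPKM with NXD30001 and 210.2 FPKM with vehicle. S100b was listed at 0 FPKM with NXD30001 and 0.305 FPKM with vehicle, and the estimate of L1cam failed. Sox10, the transcription factor that defines the lineage, was listed in tumours at 139.8 FPKM with NXD30001 and 47.0 FPKM with vehicle, a difference of 1.55. In bulk tumours a change in the number of cells of a type and a change in RNA per cell cannot be told apart. The part of Schwann cell content in the Scn7a and Scn8a values was not tested.

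In culture the same list was split. Of its 10 compared genes, 3 were 2-fold higher and 5 lower with NXD30001, beside 12.6% and 24.8% of all compared genes. The summed level was 3347 FPKM with NXD30001 and 908 FPKM with DMSO. Pmp22 alone, a myelin protein gene, was listed at 2777 FPKM with NXD30001 and 670 FPKM with DMSO. Prx, the periaxin gene of myelinating cells, was listed at 28.6 FPKM with NXD30001 and 1.68 FPKM with DMSO. Sox10 was listed at 4.40 FPKM with NXD30001 and 8.42 FPKM with DMSO, and Gfap at 0 with NXD30001 and 0.414 FPKM with DMSO. The 95% range of the Sox10 ratio, 0.154 to 1.77, includes 1, and the authors' deposited table does not call Sox10. Of the list, that table calls 3 genes higher and 2 lower, beside 2.75% and 7.14% of all compared genes. The 2 called lower were Cdh19 (difference -2.51) and L1cam (-2.27). Scn7a was thus higher in a culture library in which Pmp22 and Prx were higher and Cdh19 and L1cam lower. The part of these in the Scn7a value was not tested.

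Neurons and muscle are the usual sources of most other subunits. The neuron list of 12 genes summed in tumours to 218 FPKM with NXD30001 and 134 FPKM with vehicle. Of its 6 compared genes 2 were 2-fold higher, the neurofilament genes Nefl and Nefm, which share a locus with each other. The neuronal genes Elavl4, Nefh, Prph, Snap25 and Syt1 were listed at 0 in both tumour libraries. In culture the neuron list summed to 7.03 FPKM with NXD30001 and 27.9 FPKM with DMSO, with Elavl4 at 0 in both. Of its 2 compared genes 0 were 2-fold higher and 1 was lower, and that gene held most of the DMSO sum. The skeletal muscle list of 12 genes summed in tumours to 35.7 FPKM with NXD30001 and 10.1 FPKM with vehicle. Of its 4 compared genes, 2 were 2-fold higher and 2 were below 0 in difference, with Ckm and Cacna1s at 0 in both. In these sums 1 gene held 22.9 FPKM with NXD30001 and 3.31 FPKM with vehicle. The 95% range of its ratio, 0.403 to 118, includes 1. The authors' deposited table calls 0 of the list higher and 0 lower in tumours, beside 3.14% and 2.45% of all compared genes. In culture the skeletal muscle list summed to 2.82 FPKM with NXD30001 and 1.45 FPKM with DMSO, with 0 of 1 compared gene 2-fold either way. Acta1, Ckm, Myh1, Myh2, Myh4 and Tnnt3 were at 0 in both culture libraries. Of all compared genes, 12.6% were 2-fold higher and 24.8% lower in culture, and 7.32% and 6.93% in tumours. The part of neuron and muscle RNA in the tumour values of Scn3a, Scn4a and Scn8a was not tested.

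Host cell lists leaned the other way or were mixed in tumours, where 7.32% of all compared genes were 2-fold higher and 6.93% lower. The macrophage list summed to 1456 FPKM with NXD30001 and 1833 FPKM with vehicle, with all 10 genes below 0 in difference and 1 at least 2-fold lower. The endothelium list summed to 37.7 FPKM with NXD30001 and 88.2 FPKM with vehicle, with 5 of 8 genes 2-fold lower. The smooth muscle and pericyte list summed to 429 FPKM with NXD30001 and 258 FPKM with vehicle, with 2 of 5 compared genes 2-fold higher. The fibroblast list summed to 2526 FPKM with NXD30001 and 3235 FPKM with vehicle, with 0 of 8 genes past 2-fold.

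In culture the macrophage list summed to 2.04 FPKM with NXD30001 and 2.55 FPKM with DMSO, of which Cd68 was 1.93 FPKM with NXD30001 and 2.32 FPKM with DMSO, and Itgam, Lyz2, C1qa, C1qb and Emr1 were at 0 in both. The endothelium list summed to 2.20 FPKM with NXD30001 and 0.143 FPKM with DMSO, of which Tek was 2.18 FPKM with NXD30001 and 0.0324 FPKM with DMSO, with Cdh5, Cldn5, Emcn and Tie1 at 0 in both. The smooth muscle and pericyte list summed to 10.6 FPKM with NXD30001 and 3.74 FPKM with DMSO, and the fibroblast list to 898 FPKM with NXD30001 and 1002 FPKM with DMSO. The part of such cells in the subunit values was not tested.

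**Figure D5:**
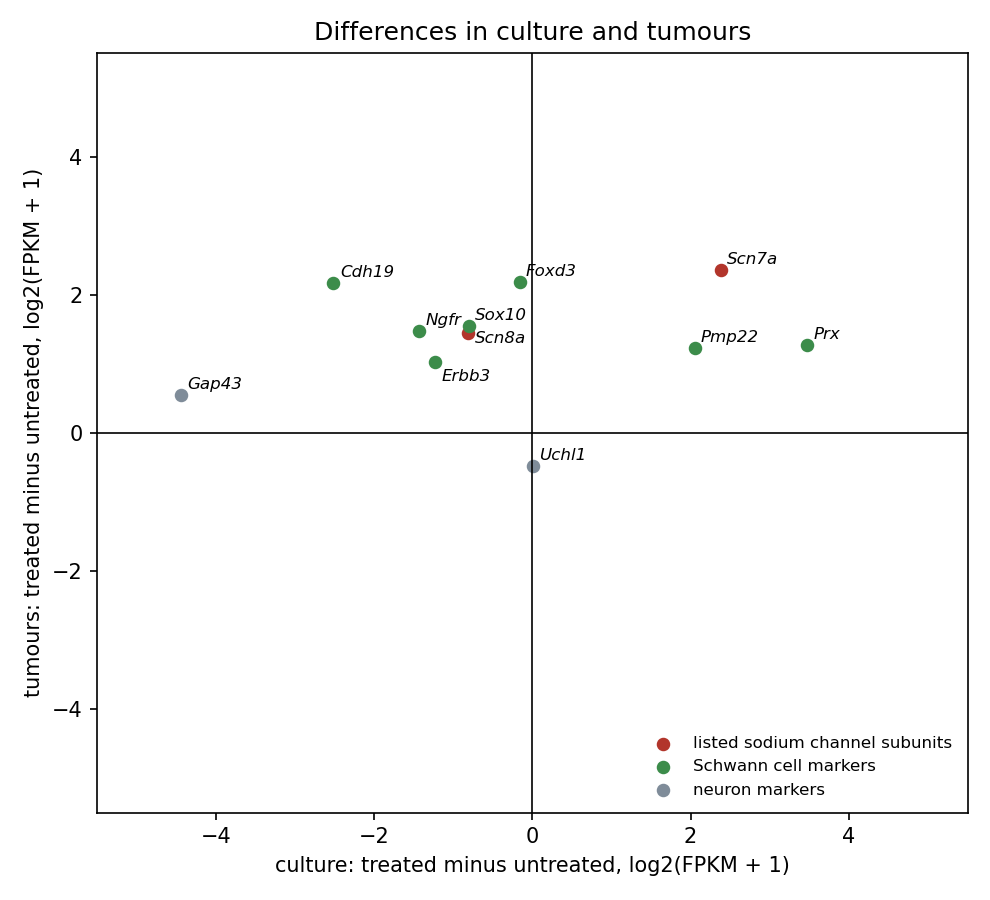
Treated minus untreated log2(FPKM + 1) in tumours (vertical) against culture (horizontal) for the listed subunits (red), Schwann cell markers (green) and neuron markers (grey) reported here that were compared in both tables; each point is 1 gene. Scn7a lies in the upper right (2.38 in culture, 2.36 in tumours), and Scn8a lies left of 0 in culture (-0.81) and above 0 in tumours (1.44).

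Genes with levels most like those of Scn7a were ranked by the Euclidean distance over the 4 log2(FPKM + 1) levels among 21692 genes. The nearest was Rgs2, a regulator of G protein signalling, at a distance of 0.933. It was listed in culture at 11.1 FPKM with NXD30001 and 2.67 FPKM with DMSO, and in tumours at 52.0 FPKM with NXD30001 and 21.5 FPKM with vehicle. Next came Rassf7 (1.01), the growth factor receptor gene Pdgfrb (1.15), the water channel gene Aqp5 (1.24) and Sfrs14 (1.37), which shares its locus with another row. All 5 were higher in the treated library of each pair, with differences between 0.98 and 2.21. They were chosen on these same levels, so the shared direction follows from the choice and is not a result. The distance measures likeness in 4 libraries only.

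Scn7a was 1 of 117 genes at least 2-fold higher in both settings. Of 11559 genes compared in both tables, 1356 were 2-fold higher in culture, 11.7% of all, and 570 in tumours, 4.93% of all. The 117 higher in both were 8.63% of the culture genes and 20.5% of the tumour genes. The authors' deposited table calls 292 of the 11559 higher in culture, 2.53%, and 356 in tumours, 3.08%, with 33 called in both, 11.3% and 9.27% of those lists. Scn7a is among the 33, for which it was chosen. The 2 tables share no library.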

How the data were processed

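Total RNA of cultured cells and of tumours was turned into libraries by Illumina's recommended procedure, as the labels' protocols state. TopHat 1.2.0, Cufflinks 1.0.2, Cuffdiff, CASAVA and the build mm9 are named in the submitters' processing notes; strand and annotation are not given in the sources used here. Groups came from the treatment labels, since a sample type label calls all 4 samples cultured cells although titles and treatments put 2 of them in tumours.

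The authors deposited 2 tables, 1 for culture and 1 for tumours, with FPKM levels per gene, and the depth behind them is unknown. The tables also hold the authors' own fold change as a natural log, their test statistic (used here as a score), their p-value and their q-value, per the file headers. Some q-values exceed 1, up to 2.05, and the statistic has the sign opposite to the fold.

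The subunits and gene lists were chosen with earlier results of these data known. To be compared, a gene needed status OK and 1 FPKM in the treated or the untreated library, which 12676 genes met in culture and 15550 in tumours. Differences are treated minus untreated log2(FPKM + 1), and a gene past 2-fold was counted. The implied error is the absolute natural log fold divided by the statistic, converted to log2, and the 95% range is 1.96 errors each way. Where 1 library is at 0, the error of the level comes from the authors' p-value. Locus starts were moved by 1 base to count from 1. Named genes were the subunits, up to 4 members with the largest difference per list and table, the 5 genes nearest to Scn7a and up to 3 markers per cell type; further markers were named after their values were seen. A few genes under this rule are not reported here but stay in the counts and sums of their lists. The calculation was tested on simulated data. Python 3.11.15, pandas 2.3.3, scipy 1.17.1 and matplotlib 3.10.9 were used.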

Additional observations from a re-analysis of the deposited data

Results flagged for a closer look

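Scn8a was lower with NXD30001 in culture (-0.81) and higher with NXD30001 in tumours (1.44), as treated minus untreated log2(FPKM + 1). The difference between culture and tumours was not tested here or for any gene below, since each group has 1 library.

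Among the channel lists, Fxyd1 was at -1.67 in culture and 1.79 in tumours. Among the Schwann cell markers, the cadherin gene Cdh19 was at -2.51 in culture and 2.18 in tumours, the neuregulin receptor gene Erbb3 at -1.22 in culture and 1.03 in tumours, and the neurotrophin receptor gene Ngfr at -1.43 in culture and 1.48 in tumours. Tek, an endothelial receptor gene, ran the other way, at 1.63 in culture and -1.97 in tumours. On this scale each of these was past 2-fold in both settings, except Scn8a, which was past it in tumours. Without a pseudocount the Scn8a ratio in culture was 0.160.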

How the results depend on the processing

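Each of the 7 alternatives changed 1 choice. Scn7a stayed more than 2-fold higher under the 4 that apply to a single gene, with differences of 2.59 to 2.93 in culture and 2.38 to 2.44 in tumours. Scn8a kept its directions, from -0.56 to -2.57 in culture and from 1.46 to 2.35 in tumours. With a pseudocount of 0.1 or 0.01, 1 subunit in culture (Scn8a) was at least 2-fold lower, in place of 0, the culture median was 0.38 or 0.18 in place of 0.79, and the tumour median was 2.21 or 2.35 in place of 1.44. The tumour median was 0 with no minimum level and 0.84 with a minimum of 0.1 FPKM, and the culture median with that minimum was -0.14; these settings add subunits at low levels. Without rows that share a locus, 0 subunits in tumours were 2-fold lower, since Scn2b shares one. Relative to the median of compared genes, the culture differences of Scn1a and Scn3b were 0.14 and 0.07 instead of -0.11 and -0.18. No paired analysis was possible because each group has 1 library. The implied error was larger at low levels. At 1 to 3 FPKM its median was 1.01 in culture and 0.81 in tumours. At 10 to 30 FPKM it was 0.76 in culture and 0.35 in tumours. Subunits under 1 FPKM in both libraries lie below these ranges.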

Other observations

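Scn7a lies on chromosome 2 beside Scn9a, Scn1a, Scn2a1 and Scn3a. Within 1000 kb, a distance chosen after the values were seen, 5 other genes were compared in at least 1 table. They were Scn2a1, Ttc21b, AL772149.2, AL929125.1 and RP23-397A11.2, which shares the Scn9a locus. Apart from Scn2a1, whose ratio is undetermined, none of these was 2-fold higher in a treated library. In culture 0 of them were 2-fold higher with NXD30001 and 2 were 2-fold lower, beside 12.6% and 24.8% of all compared genes. In tumours 1 was higher and 2 lower, beside 7.32% and 6.93%. Ttc21b, a gene of ciliary transport, was listed in culture at 9.64 FPKM with NXD30001 and 30.3 FPKM with DMSO, and in tumours at 9.66 FPKM with NXD30001 and 9.08 FPKM with vehicle. The authors' deposited table calls none of the 5 in either setting.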
